A study of Drosophila melanogaster with 6 samples.

Results

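The nuclear genes for proteins of the mitochondrial ribosome were followed in wing imaginal discs, epithelial sacs in the fly larva from which the adult wing and adjoining thorax arise. Members were chosen by name: every gene whose current symbol begins with mRpL or mRpS and a number, and tko, the gene of mitochondrial ribosomal protein S12. Of the 11982 genes that a probe set of its own measured, 70 met this rule, 44 of the large subunit (mRpL) and 26 of the small subunit (mRpS and tko). The gene table lists 74 genes with such symbols, and the remaining 4 (mRpL34, mRpL37, mRpL53 and mRpS10) were not analysed here. Discs came from Drosophila melanogaster larvae of the third instar at 96 h AED. One group was of strain w1118 and is labelled WT, here wild type, and the other was of strain kdm510424 and is labelled kdm5 mutant. There were 3 biological replicates per group, about 60 discs in each, and 1 Affymetrix Drosophila Genome 2.0 array per replicate. The labels do not say whether the mutant larvae carried the allele on both chromosomes, nor whether replicates came from separate crosses, so a p-value reflects the spread of these samples, which may be technical. Controls sharing the mutant's background were not analysed here, so the mutation and other differences between the strains cannot be told apart.

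Mitochondria keep a ribosome of their own, descended from that of bacteria, which translates the few proteins that mitochondrial DNA encodes, all of them parts of the respiratory chain and ATP synthase. Its ribosomal RNAs come from mitochondrial DNA, whereas its proteins are encoded in the nucleus, made in the cytosol and imported. The small subunit reads the messenger RNA, and the large subunit joins the amino acids and releases the chain through an exit tunnel at the inner membrane. Many of the proteins have bacterial counterparts, and the others are specific to mitochondria. Kdm5, also called lid, removes methyl groups from lysine 4 of histone H3, a mark of active promoters. The comparison asks which of these transcripts differ between mutant and wild type discs.

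All values are log2 signals as deposited, so a difference of 1 is a 2-fold change. The array medians lay between 4.42 and 4.45, and arrays of the same genotype correlated at 0.998 to 0.999 and arrays of different genotype at 0.989 to 0.990 (over probe sets, not independent replicates). With 3 arrays per group, their number limits the precision. Kdm5 read 10.09, 10.15 and 9.98 on the wild type arrays and 4.67, 3.70 and 4.49 on the mutant arrays, so the targeted transcript matched the labels. It fell by 5.79 ± 0.23 (log2 change ± SE) to a mean of 4.29, beside a median of 4.44 over all probe sets. The exact permutation test, two-sided, gave p = 0.1, the smallest that 3 arrays against 3 allow. Among 13 wing disc markers, vg read 11.20 ± 0.02 in wild type and 11.02 ± 0.02 in the mutant, nub 11.99 ± 0.04 and 12.00 ± 0.14, and ap 10.96 ± 0.06 and 10.99 ± 0.08 (SD, n = 3 each). Of the 13, 5 were called lower in the mutant (ptc, Dll, vg, salm and rn), beside 11.9% of all genes. Changes were -0.65 for ptc and -0.31 for Dll, and nub and ap did not pass. The vg call (limma adjusted p = 0.0347) was lost whichever array was left out. All 70 members lay above the median level in both genotypes, the lowest group mean being 8.35, so no member was lost to low signal.

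Of the 70 mitochondrial ribosomal protein genes, 25 fell in the kdm5 mutant discs and 1 rose at an adjusted p under 0.05 (limma, Benjamini-Hochberg over all probe sets), and 44 did not pass. The gene tko had the largest fall. These counts depend on the scaling of the arrays. With the arrays centred on hybridization spike-in controls 5 members were called lower and 9 higher, and the members' median change was 0.03. Under that scaling 710 (5.93%) of all 11982 genes were called lower and 4126 higher, and their median change was 0.18. With the arrays as deposited the same rule called 11.9% of all 11982 genes lower and 9.76% higher (21.7% in either direction). Over the 7273 genes above the median level it called 18.1% and 14.2%. Among the members the shares were 35.7% lower and 1.43% higher. The median log2 change of the members was -0.15, so that signal fell by 9.78%, against 0.00 over all genes, and 59 of the 70 changes were below 0. In 49 members every mutant array lay below every wild type array and in 5 every mutant array lay above, against 21.6% and 20.1% of all genes. Only tko passed at 2-fold or more, beside 351 of all 11982 genes. In bulk discs fewer cells of a type and less RNA per cell cannot be told apart, and that holds for every change given here.

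**Figure D1:**
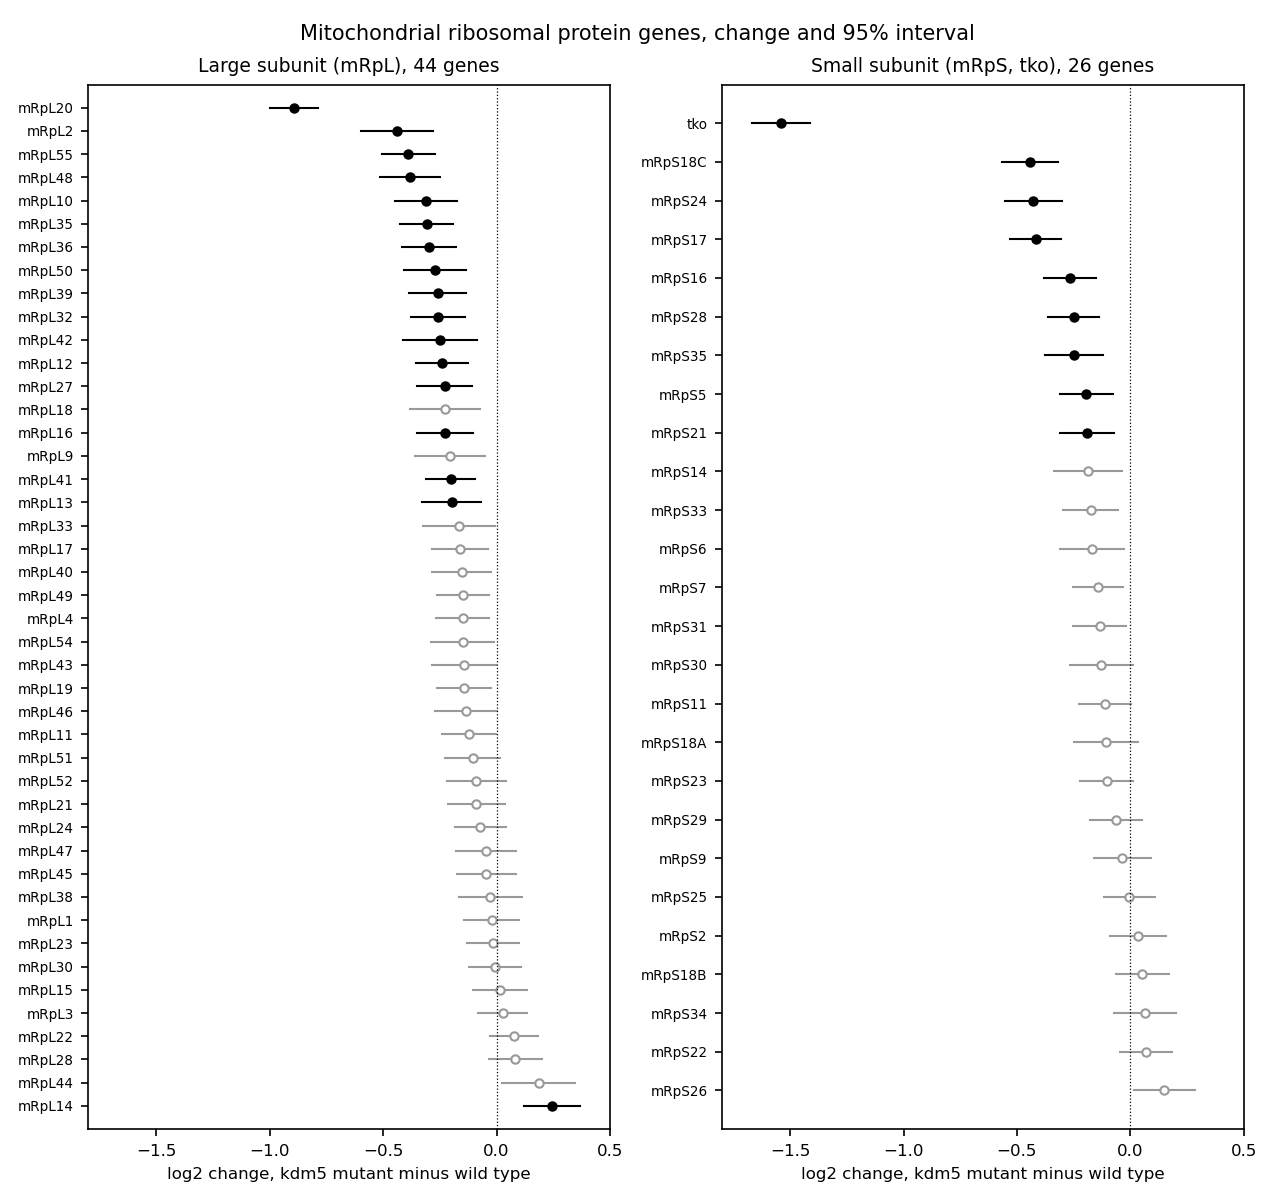
Log2 change (kdm5 mutant minus wild type, horizontal axis) of each of the 44 large subunit and 26 small subunit genes, with the 95% interval of limma as a line; filled black points passed an adjusted p of 0.05 and open grey points did not. tko at -1.54 and mRpL20 at -0.89 stand apart, the other 23 called falls lie between -0.44 and -0.19, and mRpL14 at 0.24 is the single called rise.

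The gene tko (technical knockout) encodes the counterpart of bacterial S12, which lies at the decoding centre where codon and anticodon are matched, and flies with a weak tko allele are known for seizures after mechanical shock. It read 10.67, 10.69 and 10.71 on the wild type arrays and 9.23, 9.14 and 9.09 on the mutant arrays. The groups lay far apart relative to their spread, with SDs of 0.02 and 0.07. The difference was -1.54 ± 0.05 (SE), a 2.91-fold fall (limma adjusted p = 3.75e-06). Without any single array the change stayed between -1.58 and -1.51 (limma adjusted p up to 6.49e-05). By gene order tko lies on the X chromosome between gt, which encodes a segmentation factor of the embryo, and boi, which encodes a Hedgehog co-receptor. gt fell (SE of the change 0.18), from a level of 5.26 ± 0.28 to 3.76 ± 0.29 (SD), the latter below the median level. boi, at -0.12 ± 0.05, did not pass (limma adjusted p = 0.209), nor did z, the next gene on that side, at 0.13 ± 0.06 (0.184), nor CG32797, the next beyond gt, at 0.10 ± 0.10 (0.605).

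mRpL20 encodes the counterpart of bacterial L20, which binds the large ribosomal RNA early in assembly. Its levels were 10.61, 10.62 and 10.60 in wild type and 9.74, 9.71 and 9.70 in the mutant, with SDs of 0.01 and 0.02. The groups did not overlap, and the fall of 0.89 ± 0.05 was 1.86-fold (limma adjusted p = 2.07e-05). The genes on either side of it on arm 3L gave values near 0: CG11267 0.04 ± 0.05, Icmt 0.00 ± 0.05 and MICAL-like 0.01 ± 0.05 (limma adjusted p of 0.718, 0.970 and 0.951).

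The other called falls were 1.36-fold or smaller. They are given by the place of each protein in the ribosome, as known from bacteria and mammals. These role groups were formed after the values had been seen and are described by counts only.

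In the small subunit, where 34.6% of the genes were called lower beside 11.9% of all genes, the 3 genes placed at the decoding centre and messenger RNA channel fell. Besides tko these were mRpS24, whose mammalian relative takes the place of bacterial S3 at the channel entry, and mRpS5 beside it. mRpS24 read 8.99, 8.96 and 9.0 in wild type and 8.62, 8.55 and 8.49 in the mutant, so the groups were separate, and changed by -0.43 ± 0.05 (limma adjusted p = 0.00143). mRpS5 changed by -0.19 ± 0.05, a call lost whichever array was left out. The 2 genes put in the group of the subunit body, mRpS17 and mRpS16, which bind the small ribosomal RNA, fell as well. That group does not hold every protein of the body. mRpS17 read 9.45, 9.44 and 9.43 against 9.02, 9.06 and 8.98, a change of -0.42 ± 0.05 (limma adjusted p = 0.00104), and mRpS16 changed by -0.27 ± 0.05.

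The S18 family has 3 genes in these data, of which 1 passed. mRpS18C, whose mammalian relative holds the place of bacterial S18, read 9.36, 9.46 and 9.46 in wild type and 8.99, 9.02 and 8.95 in the mutant. The groups did not overlap, and the change was -0.44 ± 0.05 (limma adjusted p = 0.00124). mRpS18A gave -0.11 ± 0.06 (95% interval -0.25 to 0.04) and mRpS18B 0.05 ± 0.05 (-0.06 to 0.17), and neither passed. The probe set of mRpS18B is of the type that can match transcripts of more than 1 gene. Differences between the 3 genes were not tested.

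Of the platform proteins mRpS6, mRpS11 and mRpS21, mRpS21 fell, by 0.19 ± 0.05. None of the 4 genes put in the head group, mRpS7, mRpS9, mRpS14 and mRpS29, passed (limma). At an unadjusted p under 0.05, 2 of them were lower, beside 2195 of all 11982 genes. The group does not hold every protein of the head, and mRpS24, counted above with the channel, and mRpS35 were left out of it. The changes of the 4 ran from -0.19 for mRpS14 (limma adjusted p = 0.0885) to -0.03 for mRpS9. In mRpS7, mRpS14 and mRpS29 the mutant arrays all lay below the wild type arrays, as they did in 21.6% of all genes. Of the other small subunit genes mRpS28 and mRpS35 fell, each by 0.25 ± 0.05. mRpS35 is specific to mitochondria, while the mammalian relative of mRpS28 is placed with bacterial S1. mRpS22, mRpS25, mRpS26 and mRpS34, all specific to mitochondria, gave 0.07, -0.01, 0.15 and 0.06 and did not pass.

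In the large subunit, where 36.4% of the genes were called lower beside 11.9% of all genes, the interface side held a fall and the single rise. mRpL2, whose bacterial counterpart lies next to the peptidyl transferase centre, read 9.64, 9.51 and 9.50 in wild type and 9.16, 9.17 and 9.01 in the mutant. The groups were separate, and the change was -0.44 ± 0.07 (limma adjusted p = 0.00418). mRpL14, whose bacterial counterpart forms a bridge to the small subunit, read 9.55, 9.51 and 9.58 against 9.84, 9.78 and 9.74. All mutant arrays were higher, with a change of 0.24 ± 0.05 (limma adjusted p = 0.0172). mRpL19, also at the interface, gave -0.14 ± 0.05 (95% interval -0.26 to -0.03) and did not pass after adjustment (limma adjusted p = 0.0974). Next to mRpL14 on the X chromosome, CG2841 fell by 0.44 ± 0.07 (limma adjusted p = 0.0042) at a level near the median of all probe sets.

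The stalk, which calls elongation factors to the ribosome, lost signal in 2 of 3 genes. mRpL10, its base, read 9.01, 9.05 and 9.18 in wild type and 8.78, 8.77 and 8.76 in the mutant, a change of -0.31 ± 0.06 with separate groups, and mRpL12, its mobile part, changed by -0.24 ± 0.05. mRpL11 gave -0.12 ± 0.05 and did not pass (limma adjusted p = 0.156).

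Of 6 genes at the central protuberance, which contacts the head of the small subunit, mRpL48 and mRpL27 fell. mRpL48 read 9.18, 9.07 and 9.04 against 8.74, 8.74 and 8.67, a change of -0.38 ± 0.06 (limma adjusted p = 0.00351), and mRpL27, which in bacteria reaches towards the peptidyl transferase centre, changed by -0.23 ± 0.05. The other 4 ranged from -0.23 for mRpL18 (limma adjusted p = 0.0517) to -0.03 for mRpL38. Around the exit tunnel 1 of 7 genes fell, mRpL32 by 0.26 ± 0.05. That share is near those called lower over all genes (11.9%) and over genes above the median level (18.1%). mRpL4, mRpL17, mRpL22, mRpL23, mRpL24 and mRpL47 lay between -0.16 and 0.08, with a median of -0.07 over the 7.

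Among the small proteins that bind ribosomal RNA, mRpL35 and mRpL36 fell and mRpL33 did not pass. mRpL35 read 8.91, 8.99 and 9.01 in wild type and 8.66, 8.68 and 8.65 in the mutant, a change of -0.31 ± 0.05, and mRpL36 changed by -0.30 ± 0.05. mRpL55 read 9.76, 9.78 and 9.83 against 9.39, 9.45 and 9.37, again without overlap, a change of -0.39 ± 0.05 (limma adjusted p = 0.00182). The remaining called genes of the large subunit were mRpL50, mRpL39, mRpL42 and mRpL41, which are specific to mitochondria, and mRpL16 and mRpL13, which have bacterial counterparts. Their changes lay between -0.27 and -0.20.

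**Figure D2:**
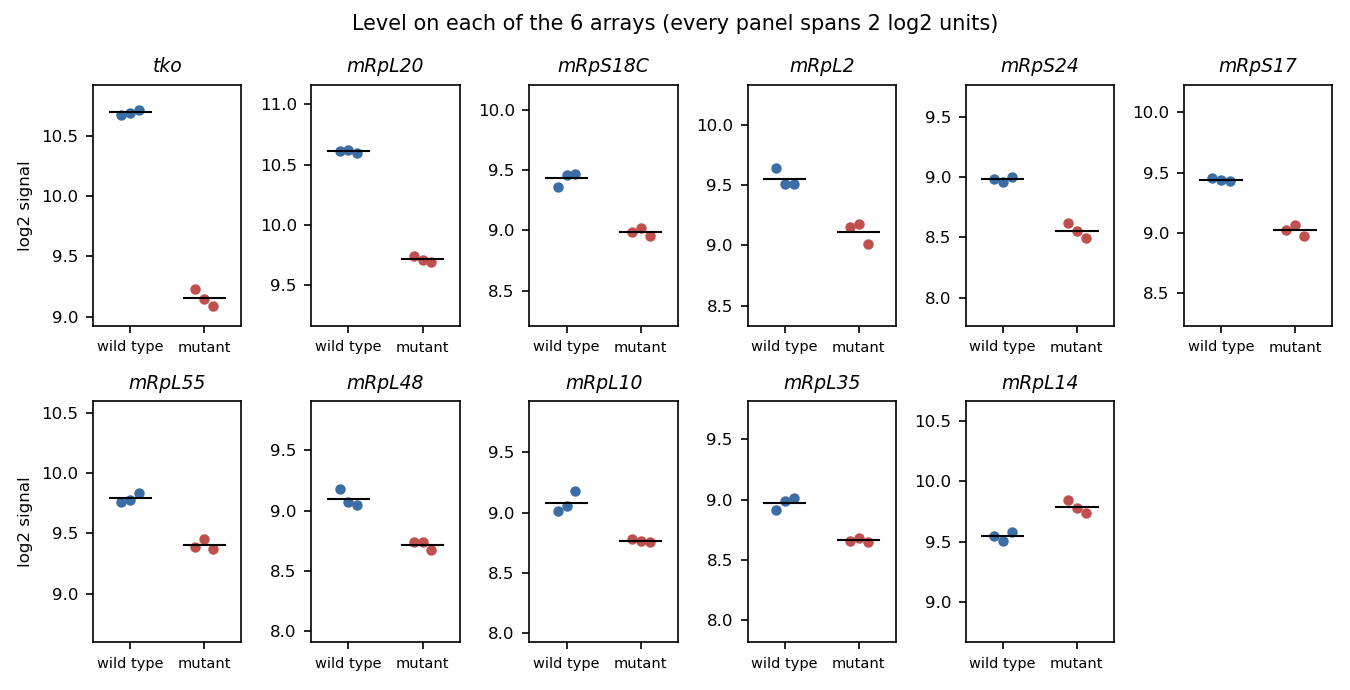
Log2 signal (vertical axis) of the 10 called genes with the largest fall and of mRpL14 on each of the 3 wild type (blue) and 3 mutant (red) arrays; black lines are group means and every panel spans 2 log2 units. The groups are separate in all 11 panels, and the gap is widest in tko, from 10.69 to 9.15 in the means.

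Counts and medians were also taken for each subunit. Of the 44 large subunit genes 16 fell and 1 rose, and of the 26 small subunit genes 9 fell and none rose (limma; 1, mRpS26, was higher at an unadjusted p under 0.05). These are 36.4% and 34.6% of the subunits, beside the 11.9% of all genes. Of the genes above the median level, where all members lay, 18.1% were called lower. The median change was -0.15 for the large subunit, with quartiles of -0.24 and -0.05, and -0.14 for the small subunit, with quartiles of -0.24 and -0.04. The difference between the medians, large minus small, was -0.01. Between arrays the large subunit median had an SD of 0.04 and the small subunit median 0.03. The spread of the difference itself was not computed. The difference turned to 0.01 when mRpS18A and mRpS30, whose mammalian relatives lie in the large subunit, were counted there. Without mutant replicate 3 it was 0.00, just above 0.

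The subunits were also followed array by array. The median over the 44 large subunit genes of the deviation from the wild type mean was -0.01, -0.01 and 0.02 on the wild type arrays and -0.12, -0.13 and -0.21 on the mutant arrays. For the small subunit it was -0.02, 0.00 and 0.01, then -0.10, -0.14 and -0.18. Mutant replicate 3 was the lowest array for both, and without it the median over all 70 members was -0.13 in place of -0.15. The median of all genes stayed within 0.01 of 0 on every array.

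**Figure D3:**
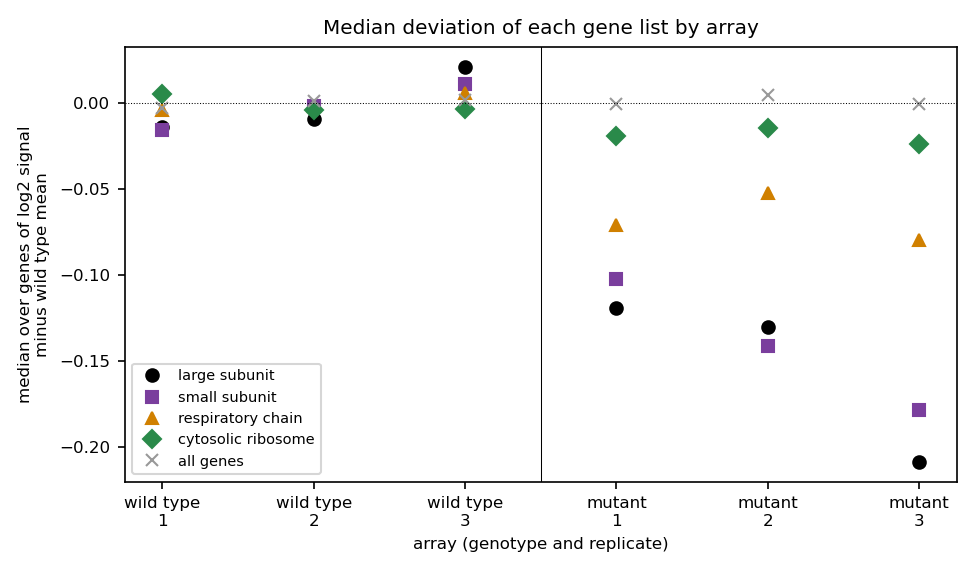
Median over the genes of each list of log2 signal minus the gene's wild type mean (vertical axis) on each of the 6 arrays (horizontal axis). Both subunits of the mitochondrial ribosome lie between -0.21 and -0.10 on the mutant arrays, the respiratory chain between -0.08 and -0.05, the cytosolic ribosome between -0.02 and -0.01 and all genes near 0.

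Genes whose proteins have bacterial counterparts fell in 18 of 44 cases, with 1 rise and a median of -0.17. Genes of proteins specific to mitochondria fell in 6 of 25 cases with no rise (limma), and had a median of -0.13. At an unadjusted p under 0.05 the rises numbered 2 in that class, and over all members 41 were lower and 3 higher. At that threshold 2195 of all 11982 genes were lower and 1962 higher. By adjusted p the falls within the small subunit were 8 of 16 against 1 of 10. Within the large subunit they were 10 of 28 against 5 of 15. mRpL55 was placed in neither class. Over all genes 11.9% were called lower, and over those above the median level 18.1%, as given above. Differences between the classes were not tested.

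The members were spread over the X chromosome and the 4 major autosomal arms, and falls were called on each. On X 2 of 12 fell and mRpL14 rose, on 2L 4 of 12 fell, on 2R 5 of 10, on 3L 8 of 17 and on 3R 6 of 19. Over all genes of these arms the shares called lower were 9.02%, 11.4%, 12.9%, 13.7% and 12.0%. Kdm5 itself lies on 2L, where the members of most negative change, mRpL48 and mRpL10, lie 540 and 709 protein-coding genes away from it in gene order. The nearest member, mRpL28 at 127 genes, gave 0.08 ± 0.05 and did not pass.

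Other lists of the mitochondrial translation system were counted in the same way, beside 11.9% of all genes called lower and 9.76% called higher. Translation factors were called lower in 11.1% and higher in 11.1%, and synthetases in 13.3% and 13.3%, shares near those of all genes. Every gene of these lists lay above the median level, where 18.1% of genes were called lower and 14.2% higher. Genes for mitochondrial nucleic acids and matrix proteolysis were called lower in 17.6% and higher in 5.88%, and import genes lower in 33.3%, with 11 of 12 changes below 0. Differences between these lists were not tested. Of 9 translation factors of mitochondria, mEFTs, the nucleotide exchange factor of the elongation factor EF-Tu, rose by 0.34 ± 0.05 and mIF2, an initiation factor, fell by 0.28 ± 0.08. Of 15 mitochondrial aminoacyl-tRNA synthetase genes, GluRS-m and AsnRS-m fell by 0.37 ± 0.06 and 0.25 ± 0.05, and ProRS-m and AspRS-m rose by 0.27 ± 0.06 and 0.29 ± 0.07. Of 17 genes that copy, transcribe or process mitochondrial nucleic acids or degrade matrix proteins, mTTF, a transcription termination factor, fell by 0.41 ± 0.05, mtSSB, which binds single-stranded DNA, by 0.21 ± 0.05 and mTerf5 by 0.17 ± 0.05, and the protease gene Lon rose by 0.20 ± 0.05. Of 12 genes of protein import and folding, Tim8, Hsp60A, Tom70 and Tom7 fell, by 0.18 to 0.31, and Tim17b1 gave 0.17 and did not pass. The medians of these 4 lists were -0.11, -0.09, -0.05 and -0.11. No gene of mitochondrial DNA was analysed here.

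Of these genes, mEFTs, GluRS-m, mTTF, Tim8 and Hsp60A kept their call with each array left out in turn. Tom70 lost it without wild type replicates 2 or 3 (limma adjusted p up to 0.0564) and AsnRS-m without mutant replicates 1 or 2 (up to 0.0577). ProRS-m, AspRS-m, mtSSB and Lon lost it without any of 5 arrays, all except wild type replicate 3, wild type replicate 2, wild type replicate 2 and mutant replicate 3 in that order (up to 0.103). mIF2, mTerf5 and Tom7 lost it whichever array was left out (up to 0.150). The lists were also scaled in other ways: with the arrays centred on the hybridization spike-in controls, mEFTs, mTTF, ProRS-m, AspRS-m and Lon kept their calls and the others lost them. With the polyadenylated controls Tim8, Hsp60A, Tom70, Tom7, AsnRS-m, mIF2, mtSSB and mTerf5 lost theirs.

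Proteins of the mitochondrial ribosome that carry other symbols were looked at beside the members. CRIF, whose mammalian relative is a protein of the large subunit, rose by 0.24 ± 0.05 (limma adjusted p = 0.0217). Its call was lost without wild type replicates 1 or 2 or any mutant array (up to 0.0751). bonsai, the gene of mitochondrial ribosomal protein S15, gave -0.09 ± 0.05 (95% interval -0.21 to 0.03) and did not pass, and CG6094, a relative of a release factor that is part of the mammalian large subunit, gave 0.08 ± 0.06.

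The cytosolic ribosome and the respiratory chain were set beside the mitochondrial ribosome. Of 41 cytosolic ribosomal protein genes 4 fell and 2 rose, with a median of -0.01, and of 74 genes of the respiratory chain and ATP synthase 13 fell and 2 rose, with a median of -0.06. These are 9.76% and 17.6% lower, against 35.7% of the mitochondrial ribosomal protein genes and 11.9% of all genes (18.1% of those above the median level). Changes in the respiratory chain ran further, from -1.73 for UQCR-11L to 2.24 for ATPsynepsilonL. UQCR-11L read 5.43 in wild type and 3.70 in the mutant, the latter below the median level. Of the respiratory chain list 18 genes lay below that level in both genotypes, and of the cytosolic ribosome 3, but no mitochondrial ribosomal protein gene. The cytosolic list was made by symbol and so also holds paralogues. Among its called genes RpL22-like gave -0.84, RpL24-like -0.28, RpL34a -0.26 and RpS19b 1.62. The differences between the lists were not tested.

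**Figure D4:**
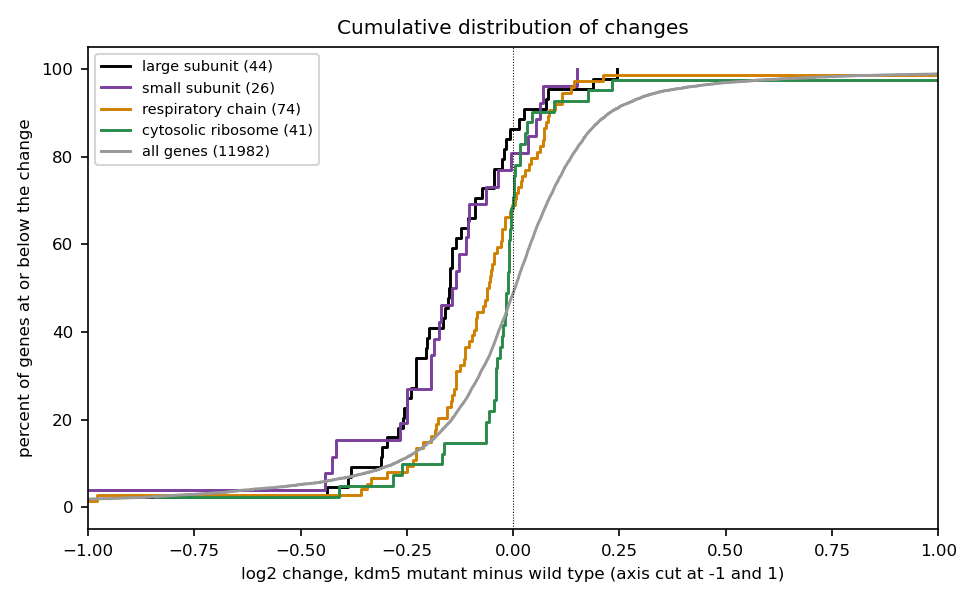
Percent of genes (vertical axis) whose log2 change is at or below the value on the horizontal axis, for both subunits of the mitochondrial ribosome, the respiratory chain, the cytosolic ribosome and all 11982 genes; changes beyond -1 and 1 lie outside the plot. The curves of both subunits run together, with medians of -0.15 and -0.14, and around these medians they lie to the left of the curve of all genes, which they cross at larger falls.

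Markers of other larval tissues and of the wing disc were also counted. Over all genes 11.9% were called lower and 9.76% higher, and over those above the median level 18.1% and 14.2%. Summed levels of the salivary gland, fat body, muscle, tracheal, gut and neuronal lists did not overlap between genotypes. Those of the haemocyte and wing disc lists overlapped. Of 11 salivary gland markers 7 fell, and their summed level was 11.99 to 13.18 in wild type and 9.66 to 9.77 in the mutant. Of 7 fat body markers 6 fell, with summed levels of 11.80 to 12.20 and 10.21 to 10.34, and of 12 muscle markers 8 fell and 1 rose, with 10.53 to 10.79 and 9.87 to 10.07. Of 17 haemocyte markers 9 fell and 2 rose, with summed levels of 12.76 to 12.79 and 12.75 to 12.81, and of 5 tracheal markers 3 rose and 1 fell, with 12.35 to 12.45 and 12.85 to 12.88. Of 6 gut markers 1 fell and 1 rose (8.59 to 8.82 and 7.06 to 7.24), 16.7% each way and near the shares of other genes. Of 7 neuronal and glial markers 3 fell (9.68 to 9.71 and 9.51 to 9.59), and of 13 wing disc markers 5 fell (14.42 to 14.43 and 14.33 to 14.43). No marker reads 0 on this log2 scale, and Sgs7 and Lsp2 still read 8.14 ± 0.03 and 6.75 ± 0.20 in the mutant (SD, n = 3). Among the wild type arrays the salivary gland sum was 13.18, 11.99 and 12.04, a range of more than 1 log2 unit that rests on replicate 1. The median deviation of the 70 members on those arrays was -0.02, -0.01 and 0.02. The part of these tissues in the difference between genotypes was not tested.

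Calls near the threshold depended on single arrays. Of the 26 called members 13 kept their call whichever array was left out: tko, mRpL20, mRpS18C, mRpL2, mRpS24, mRpS17, mRpL55, mRpL48, mRpL10, mRpL35, mRpL36, mRpS16 and mRpL32. mRpL42, mRpL13, mRpS5 and mRpS21 lost it without each of the 6 arrays. Without wild type replicate 1, mRpL50, mRpL39, mRpL12, mRpL27, mRpL16, mRpL41 and mRpL14 also lost it, and 15 members were called lower. Without wild type replicate 2 the further losses were mRpL41 and mRpL14, and without wild type replicate 3 mRpS35, mRpL27 and mRpL16. mRpL27, mRpL16, mRpL41 and mRpL14 lost it without mutant replicate 1. Without mutant replicate 2, mRpS28, mRpS35, mRpL12, mRpL27, mRpL16, mRpL41 and mRpL14 did, and 15 members were called lower. mRpL50, mRpS35, mRpL27 and mRpL41 lost it without mutant replicate 3. The limma adjusted p of these lost calls lay between 0.0502 and 0.124. In all of these fits each called member kept the direction of its change.

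How the arrays are scaled sets how many of the small falls are called. With each array centred on its hybridization spike-in controls, 18 control probe sets with means of 10.73 to 10.87 on the wild type and 10.58 to 10.63 on the mutant arrays, the median of all genes moved to 0.18 and that of the members to 0.03. With the 27 polyadenylated spike-in control probe sets the medians were 0.07 and -0.08. The members' median stayed 0.15 below that of all genes under both. Lower calls among members numbered 5 and 8, and under the hybridization centring 9 members were called higher. Over all 11982 genes these centrings called 5.93% and 7.31% lower, and 4126 and 1299 genes higher. tko, mRpL20, mRpS18C, mRpS24 and mRpS17 were called lower under all 16 alternatives, and their changes under the hybridization centring were -1.36, -0.71, -0.26, -0.25 and -0.24.

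**Figure D5:**
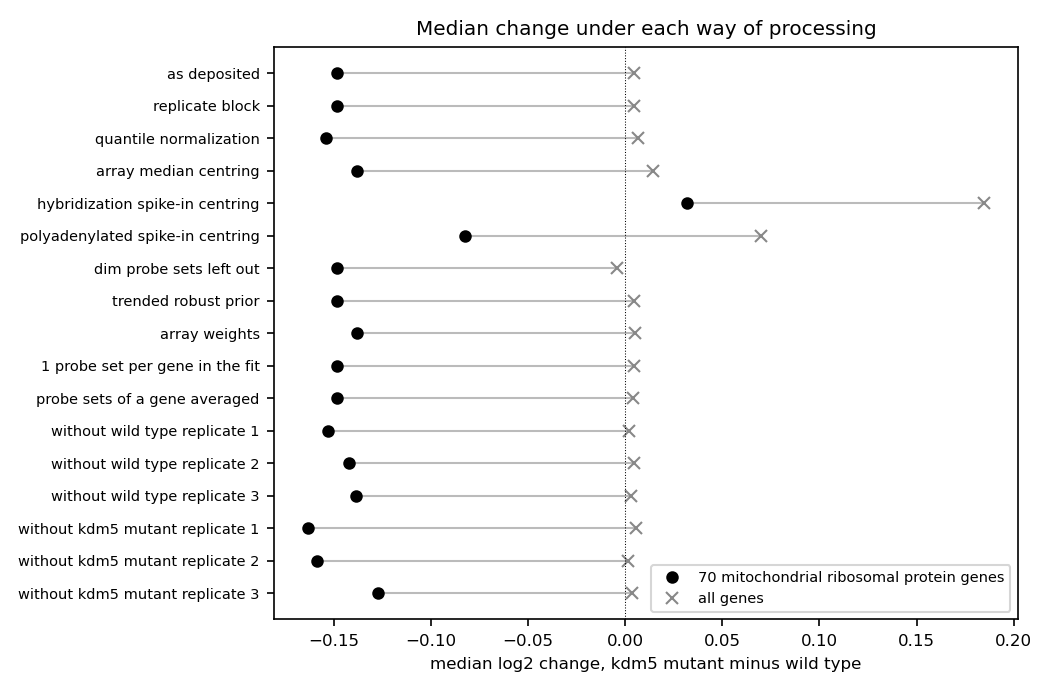
Median log2 change (horizontal axis) of the 70 mitochondrial ribosomal protein genes (filled points) and of all genes (crosses) with the arrays as deposited and under each of 16 alternatives (vertical axis). Both medians move together when the arrays are centred on spike-in controls, and the members' median lies below that of all genes in every line.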

How the data were processed

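Per the labels' protocols, Trizol was used for total RNA, of which 100 ng went into biotin-labelled cDNA. The values used are the log2 signals per probe set that the authors deposited, 1 column per array. The tools named per the submitters' processing notes are GCRMA, PLIER, GCOS and Affymetrix Expression Console, and it is not given in the sources here which made these values. No scanner file or detection call was used, and levels of different probe sets were compared only to choose 1 per gene and to set them against the median level.

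Of 18952 probe sets 183 are controls, and 18769 were tested with limma 3.58.1 in R 4.3.3 (lmFit and eBayes, genotype as the only term, two-sided, Benjamini-Hochberg over all 18769, threshold 0.05, 4 residual degrees of freedom). The fit was tested on simulated data. By GEO's annotation of the platform 13647 probe sets had 1 gene symbol, 402 several and 4720 none, and 13544 symbols were updated through the gene identifier with RefSeq's gene table of assembly Release 6. A gene is represented by its probe set of highest mean. 2 members had a second probe set, and for mRpL47 it gave -0.04 beside -0.05 and for mRpS11 -0.04 beside -0.11. Gene order comes from the same table, and since the series names no build, no coordinates are given.

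Samples were grouped by title. Deviations of same-numbered arrays from their group means correlated at -0.07, -0.03 and -0.18, and no label pairs them. The members and lists were chosen with earlier results of these data known, so lists are described by counts and medians with no test. Named genes are Kdm5, tko, every called member (the 10 of largest fall and the called rise with a value per array) and, of each other list, up to 4 called genes of smallest p. Uncalled members, examples of markers, gene-order neighbours and the role groups were chosen after values had been seen. Of the identifiers listed for mitochondrial nucleic acids and import, those that resolved to TBC1D16 and UQCR-C1 were left out as not the genes meant. Alternatives were a replicate term, quantile normalization, centring on array medians or spike-ins, leaving out dim probe sets, a trended robust prior, array weights, other ways to treat several probe sets, other subunit places for 2 genes, and each array left out.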

Additional observations from a re-analysis of the deposited data

How the results depend on the processing

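Medians of the members kept their sign under all alternatives except centring on the hybridization spike-ins, where those of all members, the large and the small subunit read 0.032, 0.031 and 0.041, while the median of all genes read 0.18. With the polyadenylated spike-ins they read -0.083, -0.083 and -0.073. Lower calls among all members, the large and the small subunit, 25, 16 and 9 as reported, numbered 5, 1 and 4 with the hybridization and 8, 4 and 4 with the polyadenylated spike-ins, 40, 25 and 15 with a trended robust prior, and 37, 23 and 14 with dim probe sets left out, where 7273 genes were tested. Higher calls, 1 as reported, numbered 9 with the hybridization spike-ins, 2 with dim probe sets left out and 3 with the trended robust prior. Over all genes the share called lower, 11.9% as reported, moved too. It was 5.93% with the hybridization and 7.31% with the polyadenylated spike-ins, 15.4% with the trended robust prior and 23.9% with dim probe sets left out. Genes called higher numbered 4126, 1299, 1578 and 1468 in that order, beside 1170 as reported. The numbers do not pair the samples by the labels or by correlation; with a term for the replicate number as a block, lower calls numbered 14, 8 and 6 and higher calls 0, and the 14 were all among the 25. With each array left out in turn, lower calls ran from 15 to 21 over all members, 8 to 14 in the large and 5 to 7 in the small subunit, and higher calls from 0 to 2. The medians ran from -0.16 to -0.13, -0.17 to -0.13 and -0.16 to -0.13. Large minus small, -0.01 as reported, ran from -0.019 to 0.00095, above 0 without mutant replicate 3, and was 0.0078 with mRpS18A and mRpS30 in the large subunit. The cause of the differences between scalings was not tested. Of 416 values of single called members under the alternatives, 312 kept their call, 104 lost it and 0 changed sign. With the replicate block ProRS-m, AspRS-m, Lon, mtSSB, AsnRS-m, mIF2, mTerf5, Tom70 and Tom7 also lost their calls. Background was not measured here, and no member lay below the median level.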
